A study of Mus musculus with 4 samples.

Results

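The genes described here are 10 factors of blood vessel growth and guidance, followed in mouse heart RNA: the ligands Vegfa, Vegfb, Vegfc, Angpt1 and Angpt2, the guidance ligand Sema3a, the receptors Kdr, Flt1 and Tek, and the transcription factor Hif1a. Every probe set that the platform annotation ties to exactly 1 of these symbols was taken, which gave 23 of 45037 probe sets, 13 for ligands, 6 for receptors and 4 for Hif1a. All 10 genes had at least 1 probe set. The genes were chosen by name with the fold changes between the labels already known, in particular the higher Tg-Sirt1 means of Angpt1, Hif1a, Vegfc and Sema3a. Their fold changes are therefore a description, and nothing is supported with their p-values.

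The data were 4 Affymetrix arrays of total RNA from whole hearts, 1 array per mouse. Per the labels, 2 mice carried a transgene named for Sirt1, an NAD-dependent deacetylase, and gave the arrays Tg-Sirt1 1 and Tg-Sirt1 2, and 2 wild type mice gave NTg 1 and NTg 2. Age, sex, strain, the promoter that drives the transgene and the number of transgenic lines were not given in the labels used here. Values are log2 expression after RMA (robust multi-array average), so a difference of 1 is a 2-fold difference, and the levels of different probe sets cannot be compared with each other. The series addressed how Sirt1 regulates gene expression in the heart.

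The arrays labelled Tg-Sirt1 1 and NTg 1 were almost the same over the whole array. The SD of their differences over 45037 probe sets was 0.0759 log2 units, against 0.342 to 0.405 in the other 5 pairs of arrays, and their largest difference was 0.48. For the 23 probe sets described here their largest difference was 0.19. The library labelled Tg-Sirt1 1 therefore adds nearly no measurement that NTg 1 does not hold. Whether 1 array was deposited under both labels cannot be told from the files. If it was, 1 of the 2 labels is wrong, and every difference between the labels below would change to that of the remaining arrays. Both arrays were kept under their labels. Each gene is given on every array, and the differences Tg-Sirt1 2 minus Tg-Sirt1 1 and NTg 2 minus NTg 1 are given beside the difference between the labels. A value without Tg-Sirt1 2 compares Tg-Sirt1 1, nearly the same as NTg 1, with NTg 1 and NTg 2. It therefore mostly shows how NTg 2 differed from the near-identical pair. A value without NTg 2 likewise mostly shows how Tg-Sirt1 2 differed from that pair. The single Sirt1 probe set read 7.16 and 7.93 on the Tg-Sirt1 arrays, against 7.30 and 7.17 on the NTg arrays, so it was higher on Tg-Sirt1 2 but not on the array labelled Tg-Sirt1 1. Cardiomyocyte markers had a mean log2 value of 13.75 and 13.63 on the Tg-Sirt1 arrays and 13.75 and 13.67 on the NTg arrays, and all 8 were measured. The widest of them, Ryr2, read 12.43 and 12.51 on the Tg-Sirt1 arrays and 12.42 and 12.24 on the NTg arrays. The cardiomyocyte means lie near the highest value on any array, 14.2, where differences may be compressed. As a sign of RNA quality, the 3' minus 5' control signal was 1.25 and 1.92 log2 units for Actb on Tg-Sirt1 1 and 2, and 1.22 and 1.44 on NTg 1 and 2. For Gapdh it was 0.19 and 1.34 on the Tg-Sirt1 arrays and 0.18 and 0.69 on the NTg arrays. A larger value means less signal from the 5' end, and Tg-Sirt1 2 had the largest for both controls.

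Vascular endothelial growth factors bind receptor tyrosine kinases on endothelial cells. Vegfa acts mainly through Kdr, while Flt1 binds Vegfa and Vegfb tightly but signals weakly and also occurs as a soluble decoy, and Vegfc is best known for lymphatic growth through Flt4. Angpt1 from perivascular and stromal cells activates the endothelial receptor Tek and steadies vessels, whereas Angpt2 mostly opposes it. Hif1a is the oxygen-regulated subunit of hypoxia-inducible factor, controlled largely at the protein level, and Vegfa and Flt1 are among its known targets. Sema3a repels axons and endothelial cells through Nrp1 and plexins, and patterns the sympathetic innervation of the heart.

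Promoter windows of 5 of these genes are given to set the array values beside regulatory sequence. They are those of 2 receptors that read lowest on Tg-Sirt1 2 (Kdr, and Flt1 in 3 of 4 probe sets), of 2 ligands that read lowest on NTg 2 in most probe sets (Vegfc and Sema3a), and of Hif1a. The windows run from 250 bases before to 50 bases after the annotated start, 5′ to 3′ on the strand of the gene, from RefSeq on the mouse build GRCm38.p6. They lie at chr5:75978406-75978705 on the minus strand for Kdr, chr5:147725962-147726261 on the minus strand for Flt1, chr8:54077282-54077581 on the plus strand for Vegfc, chr5:13396534-13396833 on the plus strand for Sema3a and chr12:73907617-73907916 on the plus strand for Hif1a. Capitals mark the cores of the hypoxia response element, ACGTG or GCGTG, on either strand.
Kdr: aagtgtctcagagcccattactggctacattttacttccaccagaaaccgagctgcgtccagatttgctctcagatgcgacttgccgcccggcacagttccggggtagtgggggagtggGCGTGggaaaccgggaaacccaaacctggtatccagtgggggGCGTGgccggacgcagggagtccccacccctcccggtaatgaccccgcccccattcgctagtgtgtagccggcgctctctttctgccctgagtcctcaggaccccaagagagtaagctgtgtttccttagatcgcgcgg
Flt1: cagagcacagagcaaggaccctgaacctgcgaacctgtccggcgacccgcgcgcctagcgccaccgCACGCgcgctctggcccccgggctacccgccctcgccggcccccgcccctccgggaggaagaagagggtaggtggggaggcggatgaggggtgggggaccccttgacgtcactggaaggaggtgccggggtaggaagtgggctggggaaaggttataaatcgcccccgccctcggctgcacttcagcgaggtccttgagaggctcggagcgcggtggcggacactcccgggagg
Vegfc: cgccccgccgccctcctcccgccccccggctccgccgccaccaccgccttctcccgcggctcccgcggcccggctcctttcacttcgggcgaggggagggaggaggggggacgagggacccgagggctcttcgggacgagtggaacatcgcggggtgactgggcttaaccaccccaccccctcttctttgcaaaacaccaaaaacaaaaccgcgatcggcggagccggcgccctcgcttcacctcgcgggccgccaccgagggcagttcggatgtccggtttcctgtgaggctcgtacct
Sema3a: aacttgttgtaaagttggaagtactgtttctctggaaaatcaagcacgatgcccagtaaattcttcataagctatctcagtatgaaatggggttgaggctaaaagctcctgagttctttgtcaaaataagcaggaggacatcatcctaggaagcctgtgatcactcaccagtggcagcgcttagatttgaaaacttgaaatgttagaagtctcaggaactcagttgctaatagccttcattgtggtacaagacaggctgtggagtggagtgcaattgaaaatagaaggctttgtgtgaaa
Hif1a: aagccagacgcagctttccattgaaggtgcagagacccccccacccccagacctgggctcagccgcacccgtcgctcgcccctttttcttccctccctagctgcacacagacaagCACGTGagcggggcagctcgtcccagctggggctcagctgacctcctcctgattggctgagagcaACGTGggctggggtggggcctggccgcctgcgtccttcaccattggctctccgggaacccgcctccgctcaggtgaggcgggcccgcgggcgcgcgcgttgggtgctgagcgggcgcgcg

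Kdr held 2 cores, both GCGTG, Flt1 held 1, and Vegfc and Sema3a held none. Hif1a held 3 matches of ACGTG, 2 of them overlapping in 1 palindrome. Of the 10 genes, 8 matched the table, with 9 windows because Vegfa had 2, and Angpt1 and Angpt2 had no entry. The first Vegfa window and that of Tek held no core, while the second Vegfa window and that of Vegfb held 2 each. The Vegfa windows lie on the minus strand, the first at chr17:46032328-46032627 and the second downstream of it at chr17:46025114-46025413. Sequence outside the windows was not searched, so a window without a core does not mean a gene without one. Among all 32851 promoter windows of this length, 43.8% held at least 1 core. The GC box GGGCGG, on either strand, occurred 2 times in Kdr, 3 times in Flt1, 2 times in Vegfc, 4 times in Vegfb, 2 and 1 times in the Vegfa windows and not in Sema3a, Tek or Hif1a, against 35.7% of all windows with at least 1. GC content was 41.3% in Sema3a and 70.3% in Vegfc, beside a median of 52.7% over all windows. A match describes letters in the window and is neither a binding site nor a cause.

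Angpt1 had the widest spread of these genes and read lowest on NTg 2 in both of its probe sets. Its probe set 1439066_at read 10.52 and 10.68 on Tg-Sirt1 1 and 2, against 10.49 and 8.92 on NTg 1 and 2. Both Tg-Sirt1 values lay above both NTg values, but the margin over NTg 1 was small and the separation rested on NTg 2. The log2 fold change was 0.90 (SE 0.51, 95% confidence interval -0.41 to 2.20). Without NTg 2 it was 0.11, and without NTg 1 it was 1.68. The other probe set, 1421441_at, read 8.67 and 7.69 on the Tg-Sirt1 arrays, against 8.84 and 7.01 on the NTg arrays, so that the groups overlapped. Its log2 fold change was 0.26 (SE 0.66), and -0.66 without NTg 2. The 2 probe sets of Angpt1 parted on Tg-Sirt1 2, where the difference from Tg-Sirt1 1 was 0.16 in 1439066_at and -0.98 in 1421441_at. On NTg 2 they went the same way, with differences from NTg 1 of -1.57 and -1.83. Only 0.735% and 0.628% of all probe sets had a wider range over the 4 arrays.

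Angpt2, which mostly opposes Angpt1 at Tek, hardly varied. Probe set 1459636_at read 5.61 on both Tg-Sirt1 arrays, against 5.62 and 5.64 on the NTg arrays, a range that 99.6% of all probe sets exceeded. Probe set 1448831_at read 5.54 and 5.47 on the Tg-Sirt1 arrays, against 5.54 and 5.33 on the NTg arrays. Both lay below the median of all probe sets, where RMA can damp differences, and the part of this was not tested. Sema3a probe set 1449865_at had nearly the same mean as 1459636_at and a range of 0.97 over the 4 arrays, against 0.03. The log2 fold changes were -0.02 (95% confidence interval -0.34 to 0.30) and 0.07 (-0.29 to 0.43).

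Vegfc, the lymphatic growth factor, had a higher Tg-Sirt1 mean in all 3 probe sets and its highest value on Tg-Sirt1 2 in each. Probe set 1440739_at read 7.78 and 8.24 on the Tg-Sirt1 arrays, against 7.69 and 7.08 on the NTg arrays. The groups did not overlap, and NTg 2 was lowest. Its log2 fold change was 0.63 (SE 0.27, 95% confidence interval -0.06 to 1.31), with 0.32 without NTg 2 and 0.40 without Tg-Sirt1 2. Probe set 1419417_at read 7.34 and 7.46 on the Tg-Sirt1 arrays, against 7.38 and 6.66 on the NTg arrays, and its log2 fold change of 0.38 was 0.02 without NTg 2. Probe set 1439766_x_at, whose suffix marks probes that may match other transcripts, read 7.02 and 7.63 on the Tg-Sirt1 arrays, against 6.83 and 6.96 on the NTg arrays. There NTg 1 was the lowest, so the low value on NTg 2 appeared in 2 of the 3 probe sets of this gene.

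Vegfa, the main endothelial growth factor, gave opposite signs in its 2 probe sets. The brighter one, 1420909_at, read 10.45 and 10.49 on the Tg-Sirt1 arrays, against 10.47 and 10.12 on the NTg arrays, with a log2 fold change of 0.18 (SE 0.17) that was 0 without NTg 2. The dimmer one, 1451959_a_at, whose suffix marks alternative transcripts of 1 gene, read 8.40 and 7.43 on the Tg-Sirt1 arrays, against 8.39 and 7.86 on the NTg arrays. It was lowest on Tg-Sirt1 2, and its log2 fold change of -0.21 (SE 0.37) became 0.28 without Tg-Sirt1 2. Both probe sets read lower on NTg 2 than on NTg 1, by -0.35 and -0.53 (NTg 2 minus NTg 1), whereas Tg-Sirt1 2 minus Tg-Sirt1 1 was 0.04 and -0.97.

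Vegfb, a ligand of Flt1 that is abundant in heart muscle, read 11.15 and 10.10 on the Tg-Sirt1 arrays, against 11.14 and 10.66 on the NTg arrays, in its only probe set 1451803_a_at. Tg-Sirt1 2 was lowest and NTg 2 lay between it and the near-identical pair, so the groups overlapped. The log2 fold change was -0.28 (SE 0.38, 95% confidence interval -1.25 to 0.70), with -0.52 without NTg 2 and 0.25 without Tg-Sirt1 2.

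Sema3a resembled the brighter Angpt1 probe set in being lowest on NTg 2 in all 3 probe sets. Its brightest, 1420416_at, read 8.05 and 8.42 on the Tg-Sirt1 arrays, against 7.92 and 6.97 on the NTg arrays, and the groups did not overlap. Its log2 fold change was 0.79 (SE 0.34, 95% confidence interval -0.09 to 1.67), with 0.32 without NTg 2 and 0.61 without Tg-Sirt1 2. Probe set 1449865_at read 5.66 and 5.98 on the Tg-Sirt1 arrays, against 5.82 and 5.01 on the NTg arrays. Its log2 fold change of 0.41 was 0 without NTg 2. The dimmest, 1420417_at, read 4.49 and 4.48 on the Tg-Sirt1 arrays, against 4.57 and 4.29 on the NTg arrays, and 13.2% of all probe sets had a lower mean.

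**Figure D1:**
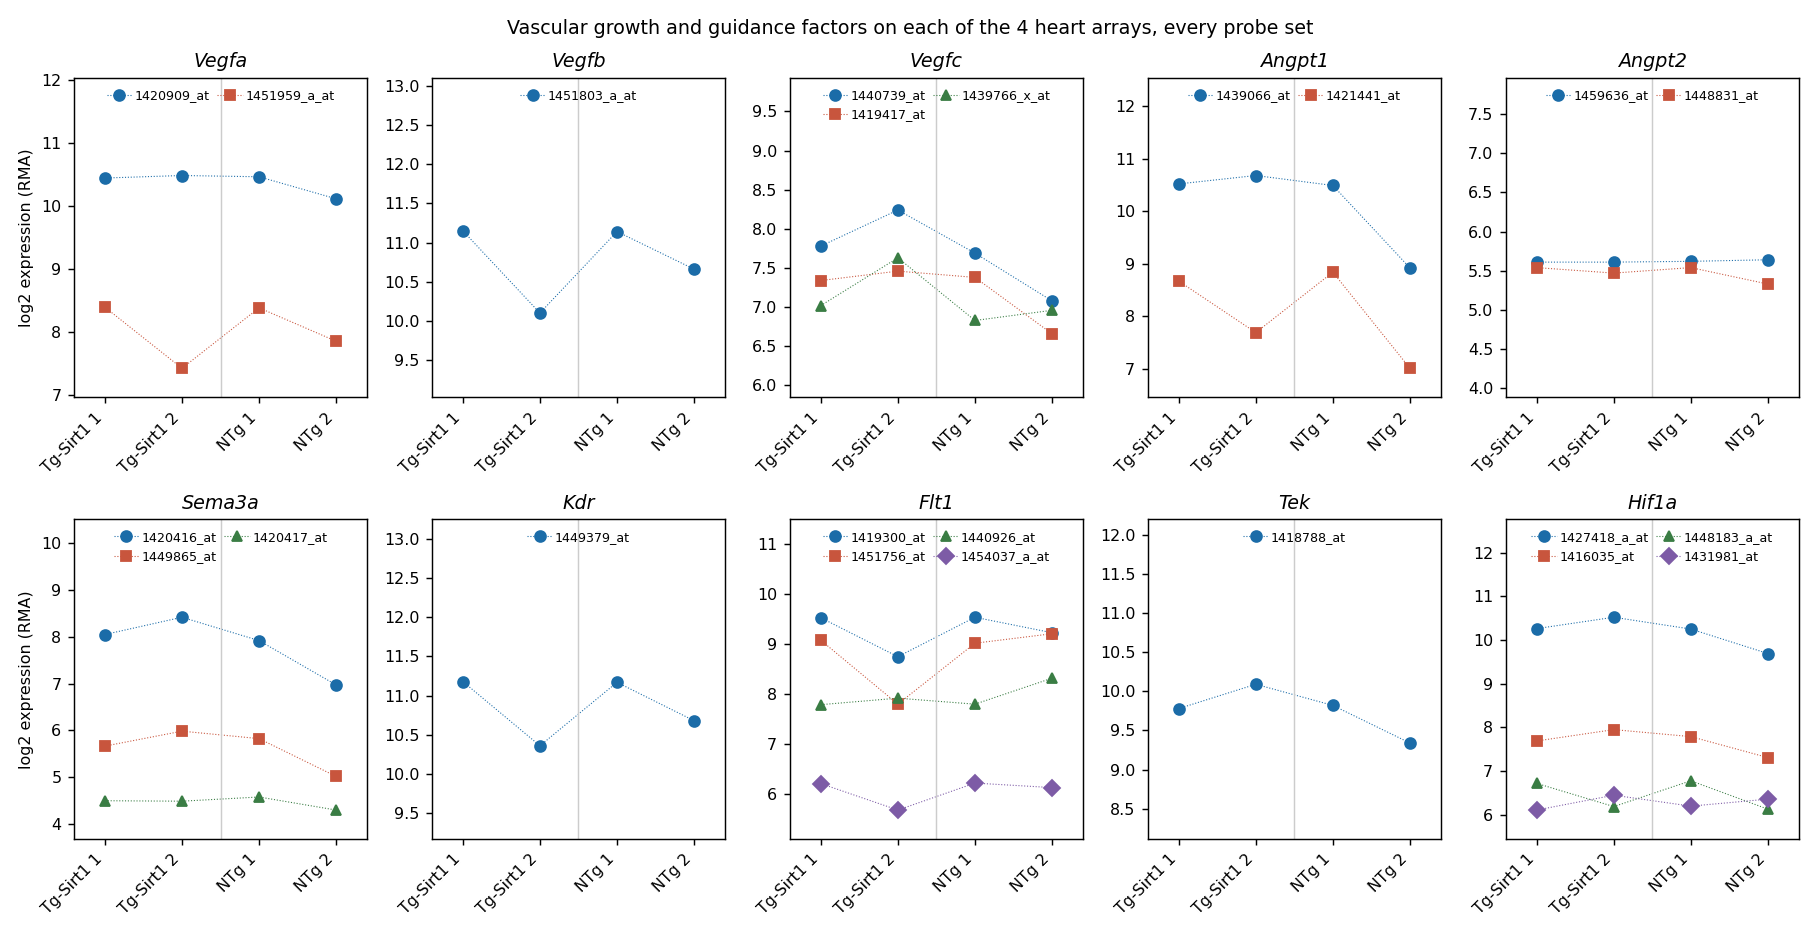
Log2 expression (vertical axis) of each gene on the arrays Tg-Sirt1 1, Tg-Sirt1 2, NTg 1 and NTg 2 (horizontal axis), with 1 symbol and colour per probe set and dotted lines that only link the values of 1 probe set. Tg-Sirt1 1 and NTg 1 read within 0.19 of each other in every panel, Angpt1 reads 8.92 and 7.01 on NTg 2, and Kdr, Vegfb and 3 Flt1 probe sets read lowest on Tg-Sirt1 2.

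The endothelial receptors Kdr and Flt1 had lower Tg-Sirt1 means, while Tek had a higher one. Kdr, the main signalling receptor for Vegfa, read 11.18 and 10.36 on the Tg-Sirt1 arrays, against 11.17 and 10.68 on the NTg arrays, in its only probe set 1449379_at. Tg-Sirt1 2 was lowest and NTg 2 second lowest. Its log2 fold change was -0.16 (SE 0.32, 95% confidence interval -0.98 to 0.67), with -0.40 without NTg 2 and 0.26 without Tg-Sirt1 2.

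Flt1 had a lower Tg-Sirt1 mean in all 4 probe sets, with log2 fold changes from -0.68 to -0.21, but the sign of 3 of the 4 turned when 1 array was left out. Probe set 1419300_at read 9.53 and 8.75 on the Tg-Sirt1 arrays, against 9.54 and 9.23 on the NTg arrays, and its log2 fold change of -0.25 was 0.15 without Tg-Sirt1 2. Probe set 1451756_at read 9.08 and 7.80 on the Tg-Sirt1 arrays, against 9.02 and 9.21 on the NTg arrays. Tg-Sirt1 2 thus stood alone in this probe set, at -1.28 from Tg-Sirt1 1, and the log2 fold change of -0.68 (SE 0.42) was -0.04 without Tg-Sirt1 2. Probe set 1454037_a_at read 6.21 and 5.68 on the Tg-Sirt1 arrays, against 6.22 and 6.13 on the NTg arrays, and its log2 fold change of -0.23 was 0.04 without Tg-Sirt1 2. Probe set 1440926_at was the exception, with 7.79 and 7.92 on the Tg-Sirt1 arrays, against 7.80 and 8.32 on the NTg arrays. It was highest on NTg 2, and Tg-Sirt1 2 lay above Tg-Sirt1 1 by 0.13. Without NTg 2 the log2 fold change of this probe set, -0.21 over all arrays, was 0.06. The 4 probe sets of Flt1 thus shared a sign between the labels but took it from different arrays.

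Tek, the receptor of the angiopoietins, read 9.78 and 10.09 on the Tg-Sirt1 arrays, against 9.82 and 9.34 on the NTg arrays, in probe set 1418788_at. Its lowest value was on NTg 2 and its highest on Tg-Sirt1 2, an order opposite to that of Flt1 probe set 1451756_at. The groups overlapped, since NTg 1 lay above Tg-Sirt1 1. The log2 fold change was 0.36 (SE 0.22, 95% confidence interval -0.20 to 0.91), with 0.12 without NTg 2 and 0.20 without Tg-Sirt1 2.

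Hif1a had its highest value on Tg-Sirt1 2 in 3 of 4 probe sets. The brightest, 1427418_a_at, read 10.26 and 10.52 on the Tg-Sirt1 arrays, against 10.25 and 9.69 on the NTg arrays. Its log2 fold change was 0.42 (SE 0.23, 95% confidence interval -0.17 to 1.01), with 0.14 without NTg 2 and 0.29 without Tg-Sirt1 2. Probe set 1416035_at read 7.69 and 7.95 on the Tg-Sirt1 arrays, against 7.79 and 7.31 on the NTg arrays, again highest on Tg-Sirt1 2 and lowest on NTg 2. The dimmer probe sets had a log2 fold change of 0. Of these, 1448183_a_at read 6.72 and 6.19 on the Tg-Sirt1 arrays, against 6.78 and 6.13 on the NTg arrays, so that it was low on Tg-Sirt1 2 and NTg 2. The last, 1431981_at, read 6.11 and 6.45 on the Tg-Sirt1 arrays, against 6.20 and 6.36 on the NTg arrays, so that it was high on both of these.

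**Figure D2:**
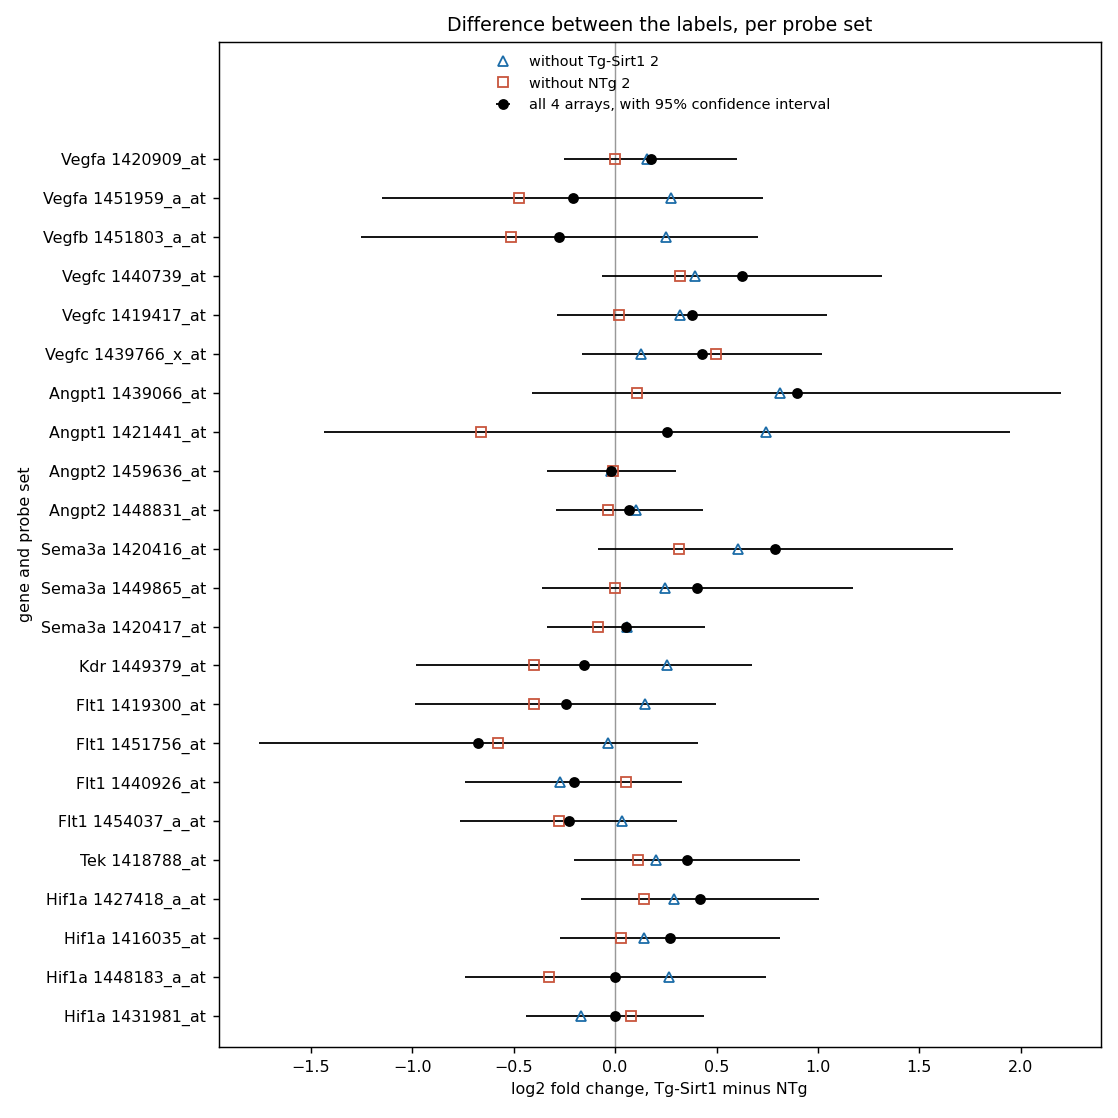
Log2 fold change, Tg-Sirt1 minus NTg (horizontal axis), of the 23 probe sets (vertical axis), with filled circles and 95% confidence intervals for all 4 arrays, open triangles for the value without Tg-Sirt1 2 and open squares for the value without NTg 2. Every interval includes 0, and 11 of the 23 probe sets have their triangle and square on opposite sides of 0, namely Vegfb, Kdr, 3 of Flt1, 2 of Hif1a and 1 each of Vegfa, Angpt1, Angpt2 and Sema3a. At those 11, Tg-Sirt1 2 and NTg 2 departed in the same direction from the near-identical arrays Tg-Sirt1 1 and NTg 1.

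Between the labels, 0 of the 23 probe sets passed an adjusted p of 0.05 in limma, where 0% of all 45037 probe sets passed (lowest adjusted p 0.996). At an unadjusted p under 0.05 there were 0 of the 23 and 28 of all. Since Tg-Sirt1 1 and NTg 1 were near-identical, this test could hardly find a difference of any size, and 0 calls say nothing on whether the hearts differed. With 2 arrays on each side, the smallest p of an exact permutation test (two-sided) is 0.333. Nothing in the labels says more of the mice than their genotype, so the spread within a label may be biological or technical.

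With all 4 arrays, ligand probe sets lay mostly above 0 and receptor probe sets mostly below it, and single arrays decided both. Of the 13 ligand probe sets 10 had a higher Tg-Sirt1 mean (median log2 fold change 0.26), beside 45.6% of all probe sets. Of the 6 receptor probe sets, 4 of them of Flt1, 1 did (median -0.22). Of the 4 of Hif1a 2 did and 2 had equal means (median 0.14). Without NTg 2, 5 of the 13 ligand probe sets were higher, 6 were lower and 2 were equal. Without Tg-Sirt1 2, 4 of the 6 receptor probe sets were higher. The median was 0.07 over the 23 and -0.02 over all probe sets. Both Tg-Sirt1 arrays lay above both NTg arrays at 5 of 23 probe sets (1 each of Angpt1, Hif1a and Sema3a and 2 of Vegfc), beside 9.59% of all probe sets, and below them at 1 (Angpt2, by 0.01), beside 11.4%. These counts use the contrast with which the genes were chosen, so nothing is read from them.

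Most probe sets, 19 of the 23, were lowest on NTg 2 or on Tg-Sirt1 2, and Vegfa, Flt1, Hif1a, Vegfc and Angpt2 had probe sets that differed in this. NTg 2 held the lowest value at 13 of the 23 probe sets, beside 29.6% of all probe sets, and among them were both of Angpt1, all 3 of Sema3a, 2 of Vegfc, Tek and 3 of Hif1a. Tg-Sirt1 2 held the lowest value at 6, beside 29.2% of all, namely Vegfb, Kdr, 3 of Flt1 and 1 of Vegfa. Of the other 4, 1 of Vegfc was lowest on NTg 1, 1 each of Flt1 and Hif1a on Tg-Sirt1 1, and 1 of Angpt2 was lowest on both Tg-Sirt1 arrays. Tg-Sirt1 2 held the highest value at 11, beside 30.1% of all, which were all 3 of Vegfc, 3 of Hif1a, 2 of Sema3a, Tek and 1 each of Angpt1 and Vegfa. A range over the 4 arrays above 1 log2 unit occurred at 6 of the 23, both of Angpt1 and 1 each of Vegfb, Vegfc, Sema3a and Flt1, beside 4.18% of all. Probe sets of 1 gene share their transcript, so these counts do not stand for separate genes. The genes were also chosen with the higher Tg-Sirt1 means of Angpt1, Hif1a, Vegfc and Sema3a known. With Tg-Sirt1 1 and NTg 1 near-identical, such means come largely from a low NTg 2 or a high Tg-Sirt1 2. Nothing is therefore read from these counts.

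**Figure D3:**
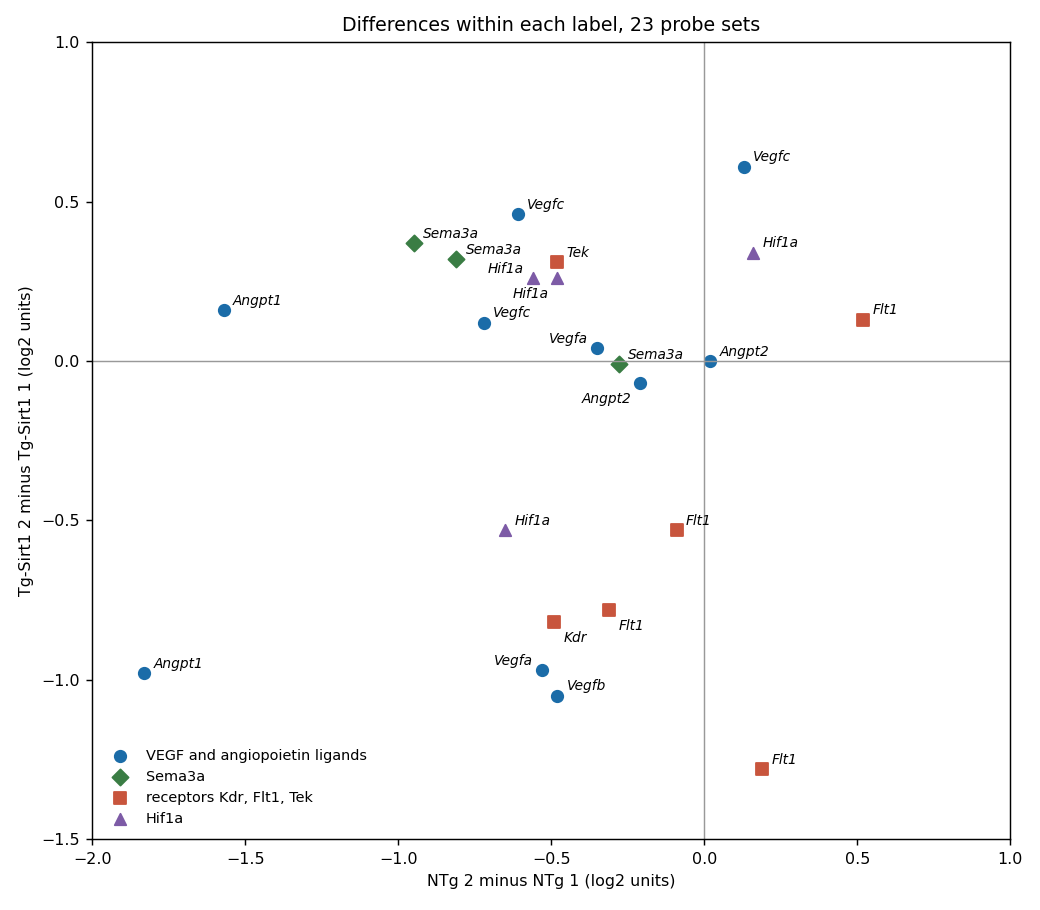
Tg-Sirt1 2 minus Tg-Sirt1 1 (vertical axis, log2 units) against NTg 2 minus NTg 1 (horizontal axis, log2 units), with 1 point per probe set, marked by role. Both Angpt1 points lie furthest left, at -1.57 and -1.83, and the lowest points are Flt1 at -1.28, Vegfb at -1.05, Angpt1 at -0.98 and Vegfa at -0.97.

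Of the 7 genes with several probe sets, 3 had probe sets whose Tg-Sirt1 2 minus Tg-Sirt1 1 differences spanned over 1 log2 unit, beside 10.3% of 9010 genes with 2 or more probe sets. The span was 1.41 for Flt1, 1.14 for Angpt1 and 1.01 for Vegfa, against 0.87 for Hif1a, 0.49 for Vegfc, 0.38 for Sema3a and 0.07 for Angpt2. Probe sets of 1 gene also parted in NTg 2 minus NTg 1. There the span was 0.85 for Vegfc, 0.83 for Flt1, 0.81 for Hif1a and 0.67 for Sema3a. It was 0.26 for Angpt1, 0.23 for Angpt2 and 0.18 for Vegfa. The larger 3' minus 5' control signal of Tg-Sirt1 2 stands beside the spans of the Tg-Sirt1 arrays, and its part in them was not tested. The part of each transcript that the probe sets cover was not determined here.

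Genes that work with these factors did not pass the test either. Of 77 listed partners, targets and other vascular genes 76 were measured, and 0 passed in either direction, with 47 higher and 29 lower Tg-Sirt1 means and a median log2 fold change of 0.06, against 0.02 over 18193 genes. This balance rested on single arrays, with 32 of the 76 higher and a median of -0.02 without NTg 2, and 55 higher and a median of 0.10 without Tg-Sirt1 2. The medians of 5 of the 6 lists below changed sign when 1 array was left out. Among receptors and coreceptors, Flt4, the receptor of Vegfc, read 8.71 and 9.14 on the Tg-Sirt1 arrays, against 8.71 and 8.50 on the NTg arrays. Nrp1, the coreceptor of Vegfa and Sema3a, read 10.92 and 10.20 on the Tg-Sirt1 arrays, against 10.91 and 10.53 on the NTg arrays. Nrp2 read 8.43 and 7.64 on the Tg-Sirt1 arrays, against 8.34 and 8.19 on the NTg arrays. Flt4 thus had the order of Vegfc probe set 1440739_at, with Tg-Sirt1 2 highest and NTg 2 lowest, and both neuropilins had that of Kdr, with Tg-Sirt1 2 lowest. Tie1, the relative of Tek, had a log2 fold change of -0.05, the endothelial phosphatase gene Ptprb 0.13, and the growth factor genes Pgf and Vegfd 0.07 and 0.02. Over the 9 VEGF and angiopoietin partners the median was -0.05, and 4 had a higher and 5 a lower Tg-Sirt1 mean.

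Among the 11 class 3 semaphorins and plexins the median was 0.05, with 6 higher and 5 lower. Sema3c, a relative of Sema3a needed for the cardiac outflow tract, had the widest range and read 9.18 and 9.56 on the Tg-Sirt1 arrays, against 9.16 and 8.27 on the NTg arrays. Sema3d had a log2 fold change of 0.07. The plexin genes Plxna1, Plxna2 and Plxnd1 had 0.05, 0.15 and 0.11. The 5 lower genes, named after their values were seen, were Sema3b (-0.24), Sema3f (-0.15), Sema3g (-0.11), Plxna4 (-0.09) and Plxna3 (-0.04). Plxnd1 read low on Tg-Sirt1 2 and NTg 2, at 8.33 and 7.74 on the Tg-Sirt1 arrays and 8.36 and 7.50 on the NTg arrays. In the list of 12 other guidance genes the median was 0.05, and the netrin gene Ntn1 varied most, with 10.49 and 10.24 on the Tg-Sirt1 arrays, against 10.55 and 9.79 on the NTg arrays.

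Around Hif1a, the 10 subunits and regulators had a median of 0.11, with 7 higher and 3 lower, and with each array left out in turn the median ran from 0.02 to 0.22. Epas1, the second oxygen-regulated subunit, read 12.24 and 12.44 on the Tg-Sirt1 arrays, against 12.29 and 12.01 on the NTg arrays. Arnt, the constant partner subunit, and Vhl, which marks the regulated subunits for decay, each had a log2 fold change of 0.11. The oxygen-sensing hydroxylase genes Egln1 and Egln3 had 0.11 and 0.35, and Egln3 read 10.00 and 10.15 on the Tg-Sirt1 arrays, against 10.02 and 9.43 on the NTg arrays. The 3 lower genes, named after their values were seen, were Hif3a, Arnt2 (-0.07) and Egln2 (-0.01). Hif3a, another HIF alpha subunit, read 7.19 and 7.09 on the Tg-Sirt1 arrays, against 7.26 and 7.69 on the NTg arrays, and its log2 fold change was -0.34.

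Of the 20 listed HIF-regulated genes 19 were measured, with a median of 0.16 and 13 higher and 6 lower. The median was -0.02 without NTg 2, 0.30 without NTg 1 and 0.06 after a second quantile normalization. NTg 2 held the lowest value in 13 of the 19, beside 29.6% of all probe sets. That share is not a like background, since each gene stands by its brightest probe set and 18 of the 19 lay above the median. The share with a higher Tg-Sirt1 mean was 45.6% of all probe sets and 55.5% with dim ones left out. The share lowest on NTg 2 among bright probe sets was not determined. The HIF-regulated genes did not all go 1 way on NTg 2. The glucose transporter gene Slc2a1 read 8.33 and 8.67 on the Tg-Sirt1 arrays, against 8.32 and 7.98 on the NTg arrays, and the transcriptional repressor gene Bhlhe40 read 9.85 and 9.82 on the Tg-Sirt1 arrays, against 9.85 and 8.92 on the NTg arrays. The mitophagy gene Bnip3, in contrast, read 11.98 and 12.03 on the Tg-Sirt1 arrays, against 11.95 and 12.35 on the NTg arrays. The kinase gene Pdk1 likewise read 9.92 and 9.97 on the Tg-Sirt1 arrays, against 9.98 and 10.24 on the NTg arrays. Adm, the vasodilator adrenomedullin, had a log2 fold change of 0.17. Of the 15 other angiogenic factors and receptors, 10 had a higher and 5 a lower mean (median 0.06), and the apelin receptor gene Aplnr, an endothelial gene, read 10.54 and 10.34 on the Tg-Sirt1 arrays, against 10.51 and 8.98 on the NTg arrays.

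Cell type markers also differed between single arrays, beside these genes. In whole heart RNA, fewer cells of a type and less RNA per cell cannot be told apart. The 10 endothelial markers, all measured, had a mean log2 value of 9.85 and 9.58 on the Tg-Sirt1 arrays, against 9.85 and 9.66 on the NTg arrays. Of the 10, 8 were lowest on Tg-Sirt1 2, some by small margins, beside 29.2% of all probe sets, dim ones included. All 10 lay above the median of all probe sets, so that share is not a like background. Cardiomyocyte markers were likewise lowest on Tg-Sirt1 2 at 6 of 8 genes, so the order alone was not particular to endothelial genes. Some margins were small, such as 13.75 against 13.76 on NTg 2 for Pln. Their list means lay near the top of the scale, so the sizes of the differences in the 2 lists cannot be compared. Pecam1, the widest endothelial marker, read 8.66 and 7.79 on the Tg-Sirt1 arrays, against 8.62 and 8.07 on the NTg arrays. Cdh5, named after its values were seen, read 8.96 and 8.94 on the Tg-Sirt1 arrays, against 8.99 and 9.0 on the NTg arrays. The endothelial list mean differed by -0.27 between Tg-Sirt1 2 and Tg-Sirt1 1, beside -0.82 for Kdr and 0.31 for Tek. Of the 5 adipocyte markers 4 were measured, with a mean of 6.06 and 5.48 on the Tg-Sirt1 arrays, against 6.03 and 5.39 on the NTg arrays. The list mean was thus low on both Tg-Sirt1 2 and NTg 2, but not every gene was. The widest adipocyte gene, Adipoq, read 7.56 and 6.79 on the Tg-Sirt1 arrays, against 7.50 and 5.92 on the NTg arrays. Ucp1, named after its values were seen, read 7.34 and 5.97 on the Tg-Sirt1 arrays, against 7.26 and 6.23 on the NTg arrays. Cidec and Lep, also named after their values were seen, differed from these. Cidec read 4.79 and 4.39 on the Tg-Sirt1 arrays and 4.71 on both NTg arrays. Lep read 4.56 and 4.77 on the Tg-Sirt1 arrays, against 4.65 and 4.71 on the NTg arrays. The part of endothelial or adipocyte content in the receptor values was not tested.

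Fibroblast markers stood lowest on NTg 2 at 8 of 8 genes, beside 29.6% of all probe sets, dim ones included. All 8 lay above the median of all probe sets, so that share is not a like background. Their mean log2 value was 11.37 and 11.08 on the Tg-Sirt1 arrays, against 11.38 and 10.52 on the NTg arrays. Col1a1, the widest, read 10.50 and 9.58 on the Tg-Sirt1 arrays, against 10.51 and 9.18 on the NTg arrays. Angpt1, Sema3a and 2 of 3 Vegfc probe sets were also lowest on NTg 2. Tg-Sirt1 2 minus Tg-Sirt1 1 was -0.295 for the fibroblast list mean. It was 0.16, 0.37 and 0.46 for the brightest probe sets of Angpt1, Sema3a and Vegfc. The other Angpt1 probe set had -0.98 and the dimmest of Sema3a -0.01. The 4 epicardial markers had a mean of 6.41 and 6.58 on the Tg-Sirt1 arrays, against 6.44 and 5.92 on the NTg arrays, and the widest, Tbx18, read 7.23 and 7.61 on the Tg-Sirt1 arrays, against 7.23 and 6.45 on the NTg arrays. The 9 pericyte and smooth muscle markers had 9.99 and 9.68 on the Tg-Sirt1 arrays, against 10.00 and 9.65 on the NTg arrays. Acta2, the widest of these and a smooth muscle actin, read 13.21 and 12.92 on the Tg-Sirt1 arrays, against 13.20 and 11.83 on the NTg arrays. The list was split, with 5 of the 9 genes lowest on NTg 2 and 4 on Tg-Sirt1 2. The smooth muscle markers Tagln, Cnn1 and Myh11, named after their values were seen, were lowest on Tg-Sirt1 2. Tagln read 10.13 and 9.13 on the Tg-Sirt1 arrays, against 10.16 and 10.11 on the NTg arrays. Of the 6 neutrophil markers 4 were measured, with 6.35 and 6.64 on the Tg-Sirt1 arrays, against 6.39 and 7.44 on the NTg arrays. The widest, S100a8, read 5.64 and 6.10 on the Tg-Sirt1 arrays, against 5.74 and 7.55 on the NTg arrays. The 7 lymphatic endothelial markers, 6 of them measured, had 7.86 and 8.09 on the Tg-Sirt1 arrays, against 7.87 and 7.96 on the NTg arrays. Prox1, the widest of them and a lymphatic transcription factor, went against its list mean on Tg-Sirt1 2, with 6.94 and 6.33 on the Tg-Sirt1 arrays, against 6.97 and 7.28 on the NTg arrays. The share of these cell types in the values of the ligands was not tested.

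**Figure D4:**
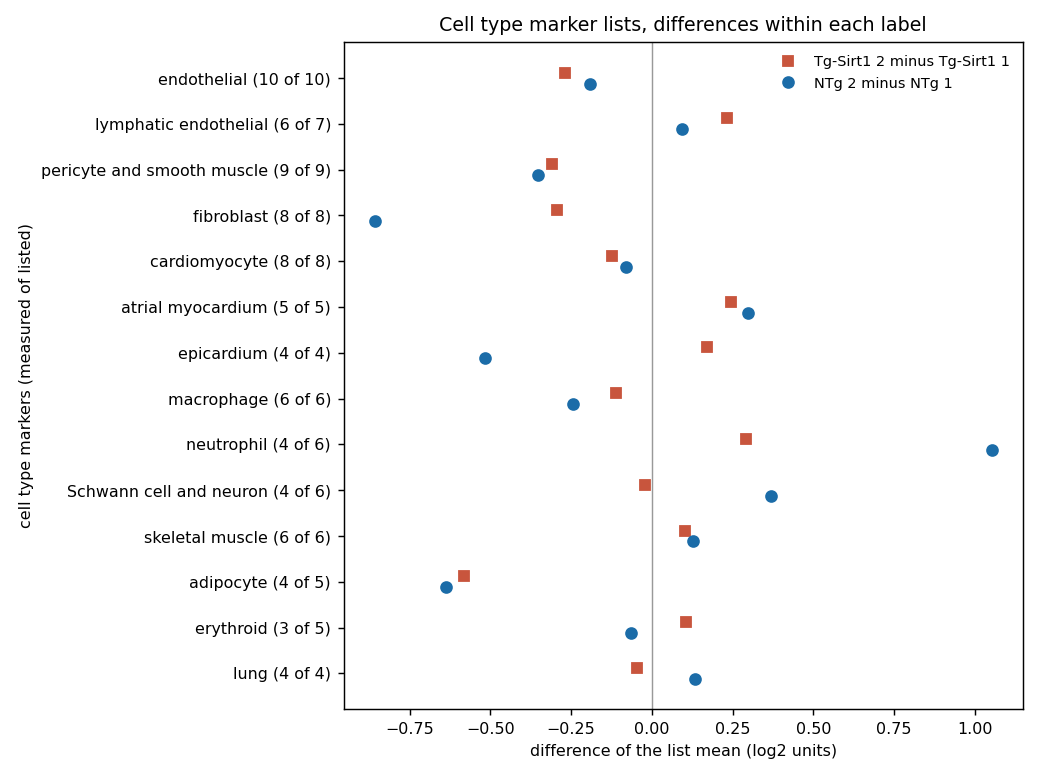
Mean log2 value of each cell type marker list (vertical axis) as Tg-Sirt1 2 minus Tg-Sirt1 1 (squares) and NTg 2 minus NTg 1 (circles), in log2 units (horizontal axis). On NTg 2 the fibroblast list lies at -0.86 and the neutrophil list at 1.05, and the endothelial list lies at -0.27 for Tg-Sirt1 2 and -0.19 for NTg 2. The adipocyte list lies furthest left for Tg-Sirt1 2, at -0.58.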

How the data were processed

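The authors deposited log2 expression values, rounded to 2 decimals, for each probe set on each array, made with RMA and Affymetrix Expression Console, per the submitters' processing notes, which give no versions. RMA is meant to equalise the distributions of the arrays, and with that to remove a difference in total RNA. The deposited values were not fully equal, with medians of 6.24 and 6.22 on Tg-Sirt1 1 and 2, and 6.23 and 6.30 on NTg 1 and 2. Of 45101 probe sets, 64 controls were left out. The platform annotation gave 1 symbol to 34945 of the other 45037, several to 932 and none here to 9160, and the Entrez identifiers of 34741 matched RefSeq on GRCm38.p6 with 0 symbols changed. For pathway and marker lists, the probe set of 1 symbol with the highest mean stood for a gene.

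The fit across all 45037 probe sets used limma 3.58.1 in R 4.3.3 (lmFit, eBayes), with Benjamini-Hochberg adjustment and a threshold of 0.05. It had 2 residual and 3.1 prior degrees of freedom, and p-values were two-sided. A fold change is the Tg-Sirt1 mean minus the NTg mean. Single arrays were compared without a test. The number of arrays limits the precision.

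The genes, lists and named partners were chosen with earlier results of these data known. Named were all members, partners with a set role, and the widest-ranging gene of each list described, apart from the genes said to be named after their values were seen. Alternatives covered each array left out, the near-identical arrays averaged, the replicate number as a block, normalization, dim probe sets, an offset of 16, and the variance prior.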

Additional observations from a re-analysis of the deposited data

How the results depend on the processing

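The counts of probe sets, of the 23 probe sets of these genes and of pathway genes past the threshold were 0 in limma under all 12 alternatives, and under 13 for pathway genes, where averaging the probe sets of each gene was tried too. In the limma fits that kept every array as a separate array, the lowest adjusted p among the 23 ran from 0.931 to 0.999. At an unadjusted p under 0.05 these fits had 0 of the 23. The other alternatives left 1 array under a label, so their p-values are not given. With the replicate block the count past the threshold was 0 (lowest adjusted p 0.931). The numbers are not known to pair the mice. The deviations of same-numbered arrays had a correlation of 0.293 over probe sets, and the near-identical arrays share the number 1.

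The median log2 fold change of the 23 was 0.07 with 13 higher and 8 lower. It was 0 without NTg 2 (10 higher, 11 lower), 0.33 without NTg 1 (16 and 7), 0.2 without Tg-Sirt1 2 (19 and 4) and 0.05 without Tg-Sirt1 1 (13 and 10), so the balance of signs rests on single arrays. Averaging the near-identical arrays into 1 gave 0.32 when that array was called Tg-Sirt1 (16 higher, 7 lower) and 0.07 when it was called NTg (13 and 10). In those 2 fits Angpt1 probe set 1439066_at had 1.67 and 0.97, Flt1 probe set 1451756_at -0.79 and -1.33, and Vegfb -0.04 and -0.80. A fit that leaves out 1 array or averages the pair has 1 array under a label, whose spread is taken from the other label. A second quantile normalization and centring on medians moved 7 and 5 of the 23 by over 1.5 times or in sign. Each changed the sign of 1, the Angpt2 probe set 1459636_at (0.03 and 0.02). Under the second quantile normalization, Vegfa probe set 1420909_at had 0.07 against 0.18 as deposited, and Kdr -0.26 against -0.16. Without dim probe sets 18 of the 23 were tested, and 10 were higher and 6 lower.

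Detection calls and scan dates were not used here, so signal over background is unknown. Both Angpt2 probe sets, 2 of Sema3a and 1 of Flt1 lay below the median of all probe sets, where RMA can compress differences, which was not tested.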

Other observations

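Beyond the vascular genes, the genes whose representative probe sets varied over the 4 arrays most like those of Angpt1, Vegfc and Sema3a were found by the Euclidean distance between the 4 values after subtracting each gene's own mean. With 4 arrays, 2 of them near-identical, this describes the arrays and says nothing of shared function. Nearest to Angpt1 were Gask1b (distance 0.0787 log2 units), the phosphodiesterase gene Pde1c (0.0985), the kinase gene Stk39 (0.12), Pdlim4 (0.144) and Tmem108 (0.149). Gask1b read 10.33 and 10.42 on the Tg-Sirt1 arrays, against 10.34 and 8.72 on the NTg arrays. Nearest to Vegfc were the zinc transporter gene Slc30a7 (0.0357), A630072M18Rik (0.0572), Spsb4 (0.0781), the mediator subunit gene Med21 (0.0792) and Phactr2 (0.0805). Nearest to Sema3a were the complement regulator gene Cd55 (0.0245), the Wnt receptor gene Fzd3 (0.05), the acyl-CoA synthetase gene Acsl6 (0.097), the splicing regulator gene Srrm4 (0.117) and Bhlhb9 (0.123). Cd55 read 6.43 and 6.78 on the Tg-Sirt1 arrays, against 6.31 and 5.36 on the NTg arrays.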
